A study of Mus musculus with 9 samples.

Results

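Lysosomes are the acidic compartments in which a macrophage degrades what it has engulfed. They hold cathepsin proteases, glycosidases and lipid-handling proteins behind a membrane of heavily glycosylated proteins, and are acidified by a proton pump, the V-ATPase. Many of their genes carry E-box sequences near the start site that the transcription factors TFEB and TFE3 are known to bind. The 33 lysosomal genes described here were chosen by symbol and cover cathepsins and legumain, glycosidases and lysozyme, lipid handling, membrane proteins, the V-ATPase, and the regulators Tfeb, Tfe3 and Grn. All 33 were found among the 22524 genes counted, and all 33 had enough reads to be tested.

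RNA sequencing was done on mouse bone marrow-derived macrophages of strain C57BL/6, grown from bone marrow for 7 days, in 9 libraries. Lipopolysaccharide (LPS), the bacterial outer-membrane component sensed by Toll-like receptor 4, was given for 6 h to SRF-KO cells (3 libraries, called SRF-KO LPS) and to control cells, whose genotype is given as wild type (3 libraries, control LPS). The other 3 libraries were control cells without LPS (untreated control). SRF is a transcription factor known for controlling actin and immediate-early genes, and the design asks what LPS does and what part SRF plays. The labels do not state how SRF was deleted, whether controls carry the same alleles or whether replicates are separate animals, so p-values cover only the spread between these libraries, which may be technical. SRF-KO cells without LPS were not analysed here, which leaves their own response to LPS unmeasured.

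Total counts lay between 16987011 and 24912173 in SRF-KO LPS, between 15321839 and 19009123 in control LPS, and between 15867737 and 17606538 in untreated control. Srf itself had 34, 24 and 12 counts in SRF-KO LPS and 738, 799 and 900 counts in control LPS, a log2 fold change of -5.75 (adjusted p = 2.86e-32). The Y-linked genes Uty, Ddx3y, Kdm5d and Eif2s3y together had 3, 1 and 2 counts in the SRF-KO LPS libraries, against 1700, 2108 and 2183 in control LPS and 2749, 2409 and 2179 in untreated control, so genotype and the presence of Y-linked transcripts cannot be told apart. The members Gla, Lamp2 and Tfe3 are X-linked. Of 8 macrophage markers all 8 were tested, with a summed level of 11755 to 12076 CPM in SRF-KO LPS, 13940.3 to 14192 CPM in control LPS and 7191 to 7434 CPM in untreated control. With SRF loss 6 of these 8 were lower and 2 higher under both scalings (median -0.88), and the sums are held up by Cd14, at 5354 ± 55.9 CPM in SRF-KO LPS and 3189.7 ± 18 CPM in control LPS. Fcgr1, the high-affinity IgG receptor, had a log2 fold change of -4.46 (adjusted p = 2.09e-42), with Mertk at -2.33 and Spi1, the PU.1 gene, at -1.31. Adgre1, the F4/80 gene, had a log2 fold change of -1.12 in SRF-KO LPS against control LPS (adjusted p = 6.03e-26) and Csf1r one of 0.36 (adjusted p = 1.53e-10). The summed osteoclast markers, of which all 8 tested were higher in SRF-KO LPS than in control LPS and 7 than in untreated control (Atp6v0d2 was lower, -0.59), stood at 306.8 to 313 CPM, against 91.9 to 95.9 CPM in control LPS and 99.4 to 100.5 CPM in untreated control. Osteoclast genes are also rich in lysosomal products, and 3 of the 9 listed markers (Ctsk, Acp5 and Atp6v0d2) appear again in the lysosomal lists. Sums in SRF-KO LPS, control LPS and untreated control were at most 20.5, 7.39 and 2.65 CPM for neutrophil markers (Elane at 0), 0.406, 2.58 and 5.46 CPM for T and NK cell markers (Cd3d, Cd3g and Ncr1 at 0), and 0.34, 1.45 and 2.22 CPM for B cell markers. They were at most 0.34, 0.161 and 0.622 CPM for mast cell and basophil markers (4 of 6 at 0), 188, 46.4 and 43.0 CPM for dendritic cell markers (Cd209a at 0), and 39.1, 86.0 and 21.3 CPM for stromal and endothelial markers (Col1a1 and Col3a1 at 0). Most of the dendritic sum was Itgax, at 173 ± 3.33 CPM in SRF-KO LPS, where Flt3 and Zbtb46 were at 0.188 and 0.394 CPM. Most of the stromal and endothelial sum was Kdr (58.8 CPM in control LPS) and Pdgfrb (27.4 CPM in SRF-KO LPS). The part of these marker differences in the results was not tested. In such bulk libraries fewer cells of a type and less RNA per cell cannot be told apart.

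Levels are given as CPM, read counts brought to a common library size with trimmed-mean (TMM) factors. Each comparison used the quasi-likelihood test of edgeR, with p-values adjusted (Benjamini-Hochberg) over all 11560 genes tested and passed at an adjusted p below 0.05. Most genes passed both with LPS and with SRF loss, so a count of passing members says little alone. LPS changed 81.7% of all genes tested, 40.8% higher and 40.8% lower, and 29 of the 33 members passed, 12 higher and 17 lower. Between SRF-KO LPS and control LPS 77% of all genes passed, 39.1% higher and 37.9% lower. Here 30 of 33 members passed, but only 5 were higher and 25 (75.8%) were lower. Members at least 2-fold lower numbered 9 (27.3%), against 11.2% of all genes, and 0 members were at least 2-fold higher, against 13.9%. The median log2 fold change of the members was -0.50 in this comparison and -0.13 with LPS, beside 0.014 and -0.018 for all genes tested. Groups did not overlap for 31 members with LPS and 30 with SRF loss, where 82.1% and 78% of all genes tested were likewise separate.

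The scaling matters to these directions. When library totals replaced TMM, the median over all genes moved to -0.57 for LPS and 0.37 for SRF loss, and every member moved with it. Members then stood at 3 higher and 28 lower with LPS, and at 13 higher and 17 lower with SRF loss. Of all genes tested, 21% were then higher and 67.8% lower with LPS, and 61.1% higher and 21.1% lower with SRF loss. Members at least 2-fold lower with SRF loss then numbered 4 (Ctsb, Ctsc, Lgmn and Grn), in place of 9 with TMM. Cd68 (-0.99), Npc2 (-0.90), Psap (-0.84), Ctsh (-0.76) and Ctss (-0.70) no longer reached 2-fold. The share of all genes at this cut was not counted with library totals. A direction held by both scalings and passing in both was found for 3 higher and 17 lower members with LPS, and for 5 higher and 17 lower with SRF loss. As a share of all reads, with no scaling factor, the 33 members took 3.87 ± 0.0259% in SRF-KO LPS, 4.66 ± 0.045% in control LPS and 6.75 ± 0.0958% in untreated control (SD, n = 3). With TMM their summed level was 37288 ± 233 CPM, 57376 ± 693 CPM and 56844 ± 1113 CPM in the same order. The sum was thus lower in SRF-KO LPS than in control LPS on both scales, while control LPS was below untreated control in share of reads but not in the TMM-scaled sum.

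**Figure D1:**
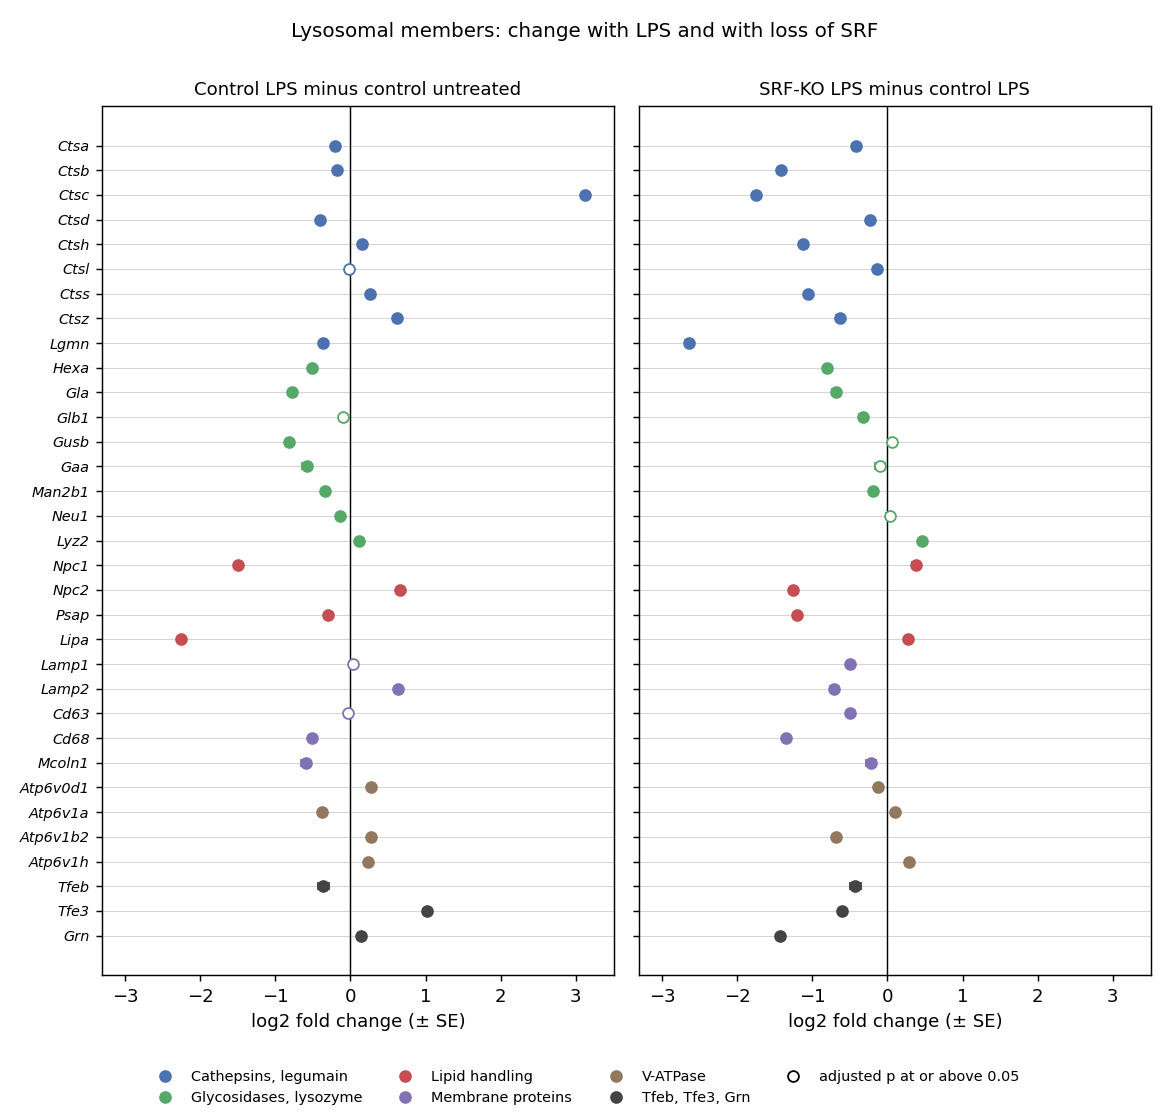
Log2 fold change (± SE) of the 33 members, control LPS minus untreated control on the left and SRF-KO LPS minus control LPS on the right, coloured by role, with open circles for members that did not pass at an adjusted p below 0.05. With LPS the members spread to both sides, from Lipa at -2.26 to Ctsc at 3.12, whereas with SRF loss 25 of 33 lie to the left and passed, led by Lgmn at -2.65.

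The cathepsins and legumain fell in SRF-KO LPS as a whole: all 9 were lower than in control LPS and passed, with a median of -1.06. With library totals 6 of the 9 were lower, Ctsd and Ctsl turned higher and Ctsa did not pass. LPS itself split the same genes, with 4 higher, 4 lower and 1 not passing (1 higher and 7 lower with library totals). Summed over the 9 genes the level was 15524 ± 109.8 CPM in SRF-KO LPS, 30399 ± 436 CPM in control LPS and 29028 ± 569 CPM in untreated control.

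Ctsc (ENSMUSG00000030560, chr7:88278085-88310888, plus strand, GRCm38) encodes cathepsin C, a dipeptidyl peptidase that activates serine proteases of immune granules. Its level was 1267, 1370.3 and 1256 CPM in SRF-KO LPS, 4340.2, 4506 and 4233 CPM in control LPS, and 497, 503 and 499 CPM in untreated control. The 3 groups were far apart, with SRF-KO LPS in between. LPS raised it 8.72-fold (log2 fold change 3.12, SE 0.0432, adjusted p = 8.08e-39), and it was 3.36-fold lower in SRF-KO LPS than in control LPS (log2 fold change -1.75, SE 0.0407, adjusted p = 3.82e-31). Set against Ctsd within each library, a ratio that no scaling factor touches, Ctsc had 0.26 ± 0.0201 reads per Ctsd read in SRF-KO LPS, 0.745 ± 0.0449 in control LPS and 0.0644 ± 0.00213 in untreated control.

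Lgmn (ENSMUSG00000021190, chr12:102394084-102439813, minus strand) encodes legumain, an asparagine-specific protease that also trims cathepsins to their mature form. It was at 212, 205 and 219.5 CPM in SRF-KO LPS, 1350.4, 1303 and 1323 CPM in control LPS, and 1676, 1685 and 1744 CPM in untreated control. The SRF-KO libraries stood far below both control groups, a 6.25-fold difference from control LPS (log2 fold change -2.65, SE 0.0408, adjusted p = 6.44e-37). The LPS change in control cells was small, at -0.36 on the log2 scale (SE 0.0375, adjusted p = 4.15e-11). Ctsb, the cysteine protease cathepsin B, was at 4014, 4084 and 4085 CPM in SRF-KO LPS, 10850.5, 11044 and 10529.7 CPM in control LPS, and 11889.5, 12273 and 12384 CPM in untreated control. It was 2.66-fold lower in SRF-KO LPS than in control LPS (log2 fold change -1.41, SE 0.04, adjusted p = 2.54e-28), against a 1.13-fold lower level with LPS in control cells (log2 fold change -0.17, adjusted p = 0.00014).

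Ctss encodes cathepsin S, which degrades the invariant chain of MHC class II. Its level was 1777, 1827 and 1784 CPM in SRF-KO LPS, 3723, 3829 and 3661 CPM in control LPS, and 3179, 3045 and 3123 CPM in untreated control. LPS raised it (log2 fold change 0.26, SE 0.0379, adjusted p = 7.59e-08), a direction that turned to -0.29 with library totals, and SRF-KO LPS was 2.08-fold below control LPS (log2 fold change -1.06, adjusted p = 8.22e-25). Ctsl, cathepsin L, differed little between groups, at 1276, 1279 and 1333 CPM in SRF-KO LPS, 1448, 1425 and 1409.8 CPM in control LPS, and 1475, 1397 and 1476 CPM in untreated control. Its LPS change did not pass (-0.022, adjusted p = 0.6, though -0.57 and passing with library totals), and its lower level in SRF-KO LPS was -0.14 (adjusted p = 0.00114) but 0.22 with library totals. The Ctss to Ctsl read ratio was 1.39 ± 0.0449 in SRF-KO LPS, 2.62 ± 0.0602 in control LPS and 2.15 ± 0.0318 in untreated control. The Ctsl to Ctsb ratio was 0.319 ± 0.00661, 0.132 ± 0.00266 and 0.119 ± 0.0051 in the same groups, so cathepsin L transcripts stood higher relative to cathepsin B in SRF-KO LPS.

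Ctsd, the aspartic protease cathepsin D, was at 5122, 4835 and 5024 CPM in SRF-KO LPS, 6053, 5658 and 5876 CPM in control LPS, and 7616, 7622 and 8044 CPM in untreated control. Both steps were downward, -0.40 with LPS (adjusted p = 1.67e-11) and -0.23 with SRF loss (adjusted p = 3.45e-06), the second turning to 0.12 with library totals. Ctsh, an aminopeptidase, was 2.17-fold lower in SRF-KO LPS, at 157 ± 4.96 CPM against 341 ± 4.72 CPM in control LPS (SD, n = 3 each), with untreated control at 308 ± 7.85 CPM. Ctsz, a carboxypeptidase, was at 1169 ± 51.5 CPM in SRF-KO LPS, 1816 ± 77 CPM in control LPS and 1183 ± 48.5 CPM in untreated control, a rise of 0.62 with LPS (adjusted p = 1.87e-16, or 0.069 and not passing with library totals) and a log2 fold change of -0.64 with SRF loss. Ctsa, the protective protein that stabilises beta-galactosidase and neuraminidase, was -0.20 with LPS and -0.41 with SRF loss on the log2 scale, and the second value did not pass with library totals (-0.056). Exons of Ctsa, Ctsb and Ctsz overlap a gene on the other strand, and the strand setting of the counting is not known here.

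**Figure D2:**
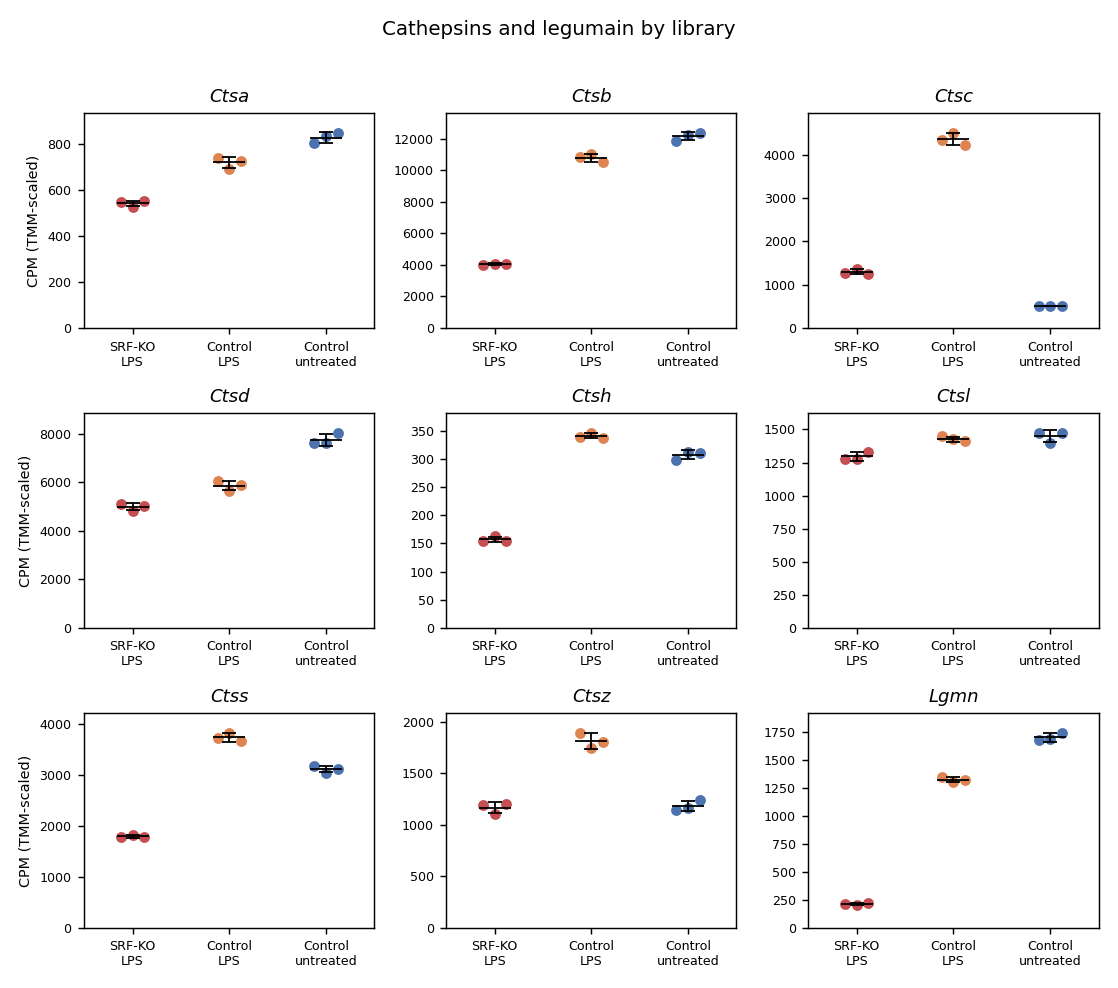
TMM-scaled CPM of the 9 cathepsin and legumain genes, each point 1 library, with mean and SD bars (n = 3 per group), SRF-KO LPS left, control LPS in the middle and untreated control right, on axes that start at 0. SRF-KO LPS lies below control LPS in every panel, and only for Ctsc does it lie above untreated control without overlap.

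Lipid handling split into a pair that LPS lowered strongly and a pair that was much lower in SRF-KO LPS than in control LPS. Lipa, the acid lipase that frees cholesterol and fatty acids from engulfed lipoproteins (ENSMUSG00000024781, chr19:34492318-34527474, minus strand), was at 258, 256 and 248 CPM in SRF-KO LPS, 205, 217 and 210 CPM in control LPS, and 1007, 1014 and 1004 CPM in untreated control. LPS lowered it 4.78-fold (log2 fold change -2.26, SE 0.0389, adjusted p = 1.11e-35), and SRF-KO LPS was 0.27 above control LPS (SE 0.0389, adjusted p = 9.05e-08). Npc1, the membrane protein that exports cholesterol from the lysosome, behaved alike, at 140, 136 and 137 CPM in SRF-KO LPS, 112, 106 and 101 CPM in control LPS, and 291, 294 and 309 CPM in untreated control. It fell 2.81-fold with LPS (log2 fold change -1.49, SE 0.0422, adjusted p = 1.7e-28) and was 0.38 higher with SRF loss (adjusted p = 6.08e-10). These SRF-KO LPS levels of Lipa and Npc1 stayed far below those of untreated control.

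Npc2, the soluble protein that hands cholesterol to NPC1, went the other way, at 948, 949.9 and 931 CPM in SRF-KO LPS, 2250.0, 2269 and 2245 CPM in control LPS, and 1422, 1432 and 1426 CPM in untreated control. LPS raised it 1.58-fold (log2 fold change 0.66, SE 0.0362, adjusted p = 3.91e-19), and SRF-KO LPS was 2.39-fold lower than control LPS (log2 fold change -1.26, SE 0.0367, adjusted p = 6.8e-28) and below untreated control. The Npc2 to Npc1 read ratio was 6.84 ± 0.114 in SRF-KO LPS, 21.2 ± 1.09 in control LPS and 4.79 ± 0.154 in untreated control. Psap encodes prosaposin, the precursor of the saposins that present sphingolipids to hydrolases. It was at 1795, 1682 and 1755 CPM in SRF-KO LPS, 4073, 3975 and 3939 CPM in control LPS, and 4766, 4869 and 5109 CPM in untreated control, 2.29-fold lower with SRF loss (log2 fold change -1.20, adjusted p = 6.92e-26) and -0.30 on the log2 scale with LPS. The directions of all 4 genes in both comparisons were the same with library totals.

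The glycosidases were mostly lowered by LPS and were divided with SRF loss. Of the 8 genes counted here with lysozyme, 6 fell and 1 rose with LPS (median -0.43), or 8 fell with library totals. With SRF loss 4 fell, 1 rose and 3 did not pass (median -0.15), but with library totals 5 were higher and 2 lower. Hexa, the alpha subunit of beta-hexosaminidase, showed both steps, at 302, 282 and 299.7 CPM in SRF-KO LPS, 515, 511 and 512 CPM in control LPS, and 727, 726 and 744 CPM in untreated control. Its log2 fold changes were -0.51 with LPS (adjusted p = 1.66e-15) and -0.80 with SRF loss (adjusted p = 4.82e-21). Gusb, beta-glucuronidase, was at 306, 281 and 303 CPM in SRF-KO LPS, 291, 281 and 284 CPM in control LPS, and 503, 498 and 509 CPM in untreated control. LPS lowered it 1.77-fold (log2 fold change -0.82, adjusted p = 3.47e-21), and the 2 LPS groups overlapped (0.056, adjusted p = 0.191). Leaving out the second SRF-KO LPS library brought Gusb past the threshold (adjusted p = 0.0366), and with library totals it passed as higher (0.41, adjusted p = 3.95e-12). Hexa and Gusb thus had a read ratio of 0.994 ± 0.0104 in SRF-KO LPS, 1.8 ± 0.028 in control LPS and 1.45 ± 0.009 in untreated control.

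Gla, the X-linked alpha-galactosidase A, was at 49.7, 51.6 and 53.3 CPM in SRF-KO LPS, 82.6, 80 and 85.5 CPM in control LPS, and 146, 142 and 136 CPM in untreated control, lower at each step, -0.78 with LPS and -0.68 with SRF loss on the log2 scale (adjusted p = 2.41e-18 and adjusted p = 1.62e-15). Gaa, the glycogen-degrading acid alpha-glucosidase, fell with LPS (-0.58, adjusted p = 1.29e-11) but did not pass with SRF loss (-0.10, adjusted p = 0.134). Without the second control LPS library or the first SRF-KO LPS library it did pass (adjusted p = 0.0268 and adjusted p = 0.0319), and with library totals its direction turned (0.26). Man2b1, the lysosomal alpha-mannosidase, was -0.34 with LPS and -0.19 with SRF loss, both passing, the second turning to 0.16 with library totals. Glb1, beta-galactosidase, was -0.10 with LPS and did not pass although its libraries did not overlap (adjusted p = 0.0539, and 0.0191, 0.0471 or 0.0491 without the first untreated, the second untreated or the third control LPS library), and -0.33 with SRF loss (adjusted p = 7.59e-08, or 0.027 and not passing with library totals). Its exons overlap those of Tmppe on the same strand. Neu1, the sialidase, was at -0.13 with LPS (adjusted p = 0.0125) and 0.037 with SRF loss (adjusted p = 0.495), where it passed as higher with library totals (0.39, adjusted p = 3.15e-09). The LPS call of Neu1 was lost without the third untreated library (adjusted p = 0.083) or without the second control LPS library (adjusted p = 0.0634).

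Lyz2, the macrophage lysozyme that cleaves bacterial cell walls (ENSMUSG00000069516, chr10:117277331-117282321, minus strand), was the 1 gene of its group that rose with SRF loss. It was at 12329.9, 12381 and 12166 CPM in SRF-KO LPS, 8889.9, 9145 and 8732 CPM in control LPS, and 8103, 8388 and 8278 CPM in untreated control. SRF-KO LPS was 1.38-fold above control LPS (log2 fold change 0.46, SE 0.0392, adjusted p = 2.31e-13), and the LPS rise of 0.11 (adjusted p = 0.00931) turned to -0.44 with library totals. Of all reads of the 33 members, Lyz2 held 33% ± 0.37 in SRF-KO LPS, 15.6% ± 0.291 in control LPS and 14.5% ± 0.242 in untreated control (SD, n = 3). Reads of Lyz2 can be shared with its close copy Lyz1, so its level is uncertain. Per exon length, as TPM, Lyz2 was the most abundant member in every group, although Ctsb drew more reads in both control groups. It averaged 32770.5 TPM in SRF-KO LPS, 17905 TPM in control LPS and 24664 TPM in untreated control, ahead of Ctsd (7452, 6586 and 12977 TPM) and Ctss (4639.5, 7269 and 9021 TPM). At the other end were Tfeb and Mcoln1, at 12.4 and 13.1 TPM in SRF-KO LPS, 12.6 and 11.4 TPM in control LPS and 24 and 25.6 TPM in untreated control.

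The 5 membrane protein genes were all lower with SRF loss (median -0.50), or 4 lower and 1 higher with library totals, while LPS raised 1 and lowered 2 (0 and 4 with library totals). Cd68, a macrophage sialomucin of late endosomes, was at 563, 525 and 572 CPM in SRF-KO LPS, 1459, 1388 and 1382 CPM in control LPS, and 1903, 2049 and 2095 CPM in untreated control. It was 2.55-fold lower in SRF-KO LPS than in control LPS (log2 fold change -1.35, SE 0.0423, adjusted p = 7.35e-27) and 1.43-fold lower in control LPS than in untreated control. Lamp1 and the X-linked Lamp2 encode the main glycoproteins of the lysosomal membrane. Lamp1 was at 1004, 1017 and 999 CPM in SRF-KO LPS, 1415, 1429 and 1412 CPM in control LPS, and 1384, 1380.4 and 1383 CPM in untreated control, with no LPS call though the libraries did not overlap (0.037, adjusted p = 0.336) and a log2 fold change of -0.49 with SRF loss (adjusted p = 3.13e-15). Lamp2 was at 420.2, 448 and 402 CPM in SRF-KO LPS, 663, 732 and 692 CPM in control LPS, and 471, 446 and 422 CPM in untreated control. LPS raised Lamp2 by 0.64 (adjusted p = 3.67e-16, or 0.09 and not passing with library totals), and SRF-KO LPS, with a log2 fold change of -0.72 against control LPS, overlapped untreated control. The Lamp1 to Lamp2 read ratio was 2.38 ± 0.109 in SRF-KO LPS, 2.04 ± 0.0912 in control LPS and 3.1 ± 0.172 in untreated control. Cd63, a tetraspanin, was -0.036 with LPS and did not pass (it passed at -0.59 with library totals), and -0.50 with SRF loss. Mcoln1, the calcium channel TRPML1, was -0.59 with LPS and -0.22 with SRF loss (adjusted p = 0.00255), the second turning to 0.14 with library totals.

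The 4 proton pump subunits differed in their changes, with 3 higher and 1 lower with LPS and 2 higher and 2 lower with SRF loss (0 and 4, then 3 and 1, with library totals). Atp6v1a, the ATP-hydrolysing A subunit, was at 394, 410.5 and 391 CPM in SRF-KO LPS, 356, 379 and 376 CPM in control LPS, and 501, 479 and 465 CPM in untreated control. Atp6v1b2, the B subunit that alternates with it in the same ring, was at 292, 300 and 308 CPM in SRF-KO LPS, 484, 484 and 480.4 CPM in control LPS, and 398, 401 and 396 CPM in untreated control. LPS lowered Atp6v1a (-0.38, adjusted p = 2.9e-11) and raised Atp6v1b2 (0.28, adjusted p = 9.09e-09), the rise turning to -0.27 with library totals. With SRF loss Atp6v1b2 was -0.69 (adjusted p = 2.12e-19) and Atp6v1a 0.11 (adjusted p = 0.0131), though without the first control LPS library or the second SRF-KO LPS library the Atp6v1a call was lost (adjusted p = 0.103 and adjusted p = 0.0709). The A to B2 read ratio was 1.33 ± 0.0522 in SRF-KO LPS, 0.766 ± 0.0272 in control LPS and 1.21 ± 0.0443 in untreated control. Atp6v1h, the regulatory H subunit, was at 125, 128 and 122 CPM in SRF-KO LPS, 99.6, 106 and 101 CPM in control LPS, and 86.5, 88.3 and 84.9 CPM in untreated control. It was higher at each step, by 0.24 with LPS (-0.31 with library totals) and 0.29 with SRF loss (adjusted p = 1.25e-07). Atp6v0d1, which joins the rotor to the membrane sector, was 0.28 with LPS and -0.12 with SRF loss, and both directions turned with library totals (-0.27 and 0.23).

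**Figure D3:**
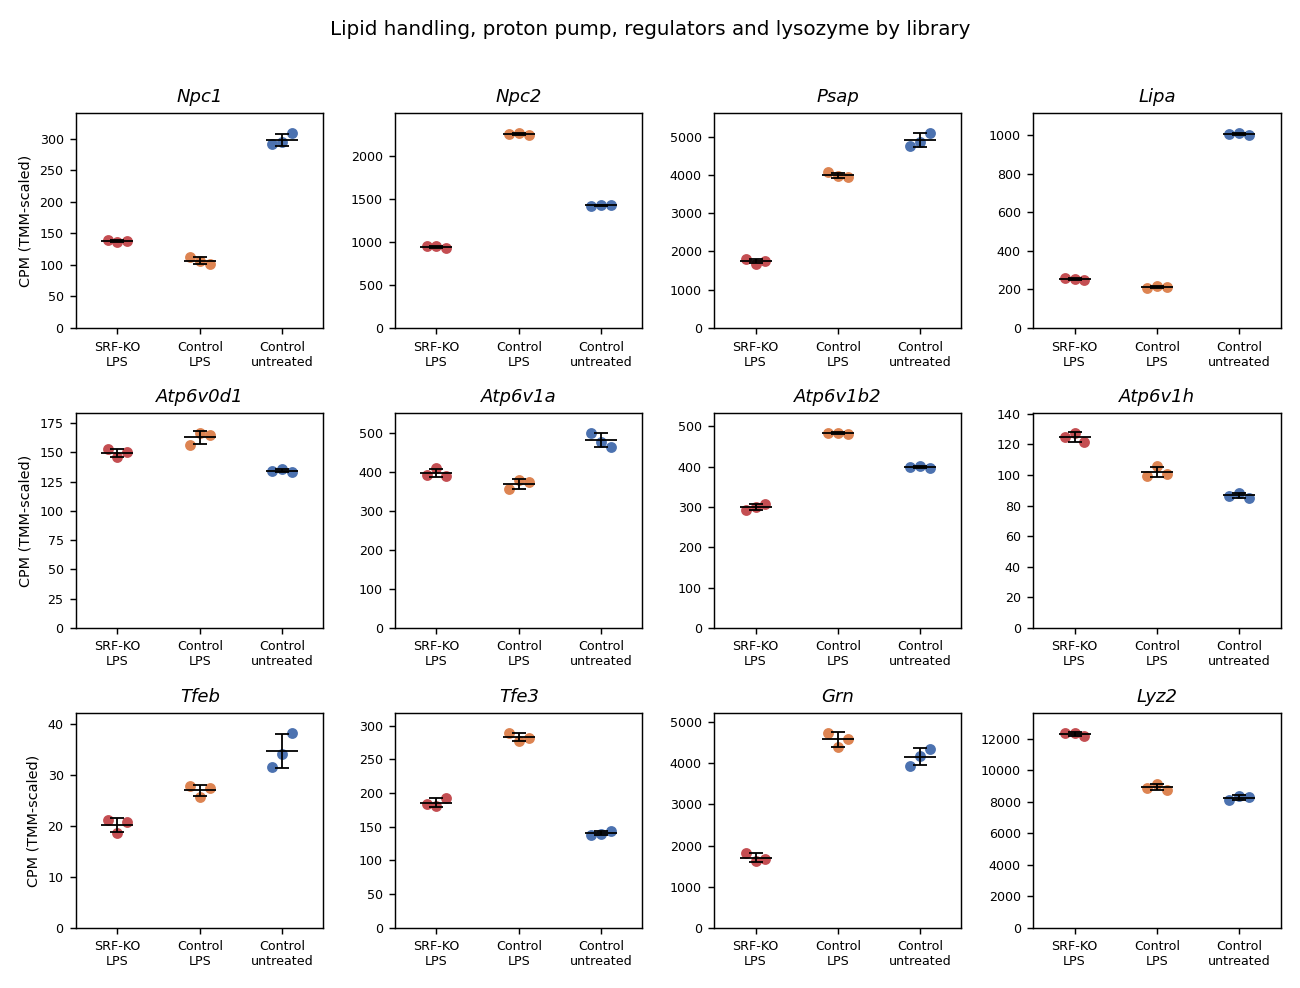
TMM-scaled CPM of the lipid-handling genes (top row), V-ATPase subunits (middle row) and Tfeb, Tfe3, Grn and Lyz2 (bottom row), each point 1 library with mean and SD (n = 3), SRF-KO LPS left, control LPS in the middle and untreated control right, axes from 0. Lipa and Npc1 are high only in untreated control, Npc2, Atp6v1b2, Tfe3 and Grn are highest in control LPS, and Lyz2 and Atp6v1h are highest in SRF-KO LPS.

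The 2 transcription factors that are known to drive lysosomal genes responded to LPS in opposite directions. Tfe3 (X-linked, ENSMUSG00000000134, chrX:7762560-7775202, plus strand) was at 183, 180.2 and 193 CPM in SRF-KO LPS, 289.6, 277 and 282 CPM in control LPS, and 138, 139.6 and 143 CPM in untreated control. LPS raised it 2.02-fold (log2 fold change 1.01, SE 0.0394, adjusted p = 6.3e-24), and SRF-KO LPS was 1.53-fold lower (log2 fold change -0.61, SE 0.0386, adjusted p = 4.28e-17), between the 2 control groups. Tfeb was scarcer, at 21, 18.6 and 20.7 CPM in SRF-KO LPS, 27.7, 25.7 and 27.4 CPM in control LPS, and 31.6, 34.1 and 38.3 CPM in untreated control. It was -0.36 with LPS (adjusted p = 2.13e-05) and -0.43 with SRF loss (adjusted p = 4.96e-06), the second not passing with library totals (-0.07). Tfeb had 0.108 ± 0.00593 reads per Tfe3 read in SRF-KO LPS, 0.0952 ± 0.00219 in control LPS and 0.247 ± 0.0189 in untreated control. Both factors are controlled largely by their place in the cell, which transcript counts do not show. Grn encodes progranulin, which reaches the lysosome with the help of sortilin or prosaposin. Its level was 1817, 1615 and 1679 CPM in SRF-KO LPS, 4744, 4395 and 4599 CPM in control LPS, and 3937, 4184 and 4348 CPM in untreated control. SRF-KO LPS was 2.69-fold below control LPS (log2 fold change -1.43, SE 0.0449, adjusted p = 8.38e-27), and the LPS rise of 0.14 (adjusted p = 0.00408) turned to -0.41 with library totals.

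Promoter sequences from RefSeq (GRCm38.p6) were searched for the E-box letters CACGTG, since TFEB and TFE3 are known to bind them, and windows ran from 250 bases before to 50 after a start site. Such windows were matched for 28 of the 33 members, and 5 (Ctsb, Ctsh, Npc1, Atp6v1b2 and Atp6v1h) were not matched. CACGTG, which reads the same on both strands, was found in 11 of the 28 members (39.3%), against 8.09% of all 27025 genes with a window and 11.9% of the 9117 tested genes with one. With 1 flanking base, as TCACGTG on either strand, it was found in 10 of 28 members (35.7%), against 4.29% of all genes and 7.07% of tested genes. The stretches below are examples chosen with the values known, a membrane protein, a channel, a protease, a glycosidase and legumain, to show the E-box in its surroundings. Each is read 5′ to 3′ on the strand of the gene with CACGTG in capitals.
Lamp1: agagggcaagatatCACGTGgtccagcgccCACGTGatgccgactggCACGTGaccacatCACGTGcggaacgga
Mcoln1: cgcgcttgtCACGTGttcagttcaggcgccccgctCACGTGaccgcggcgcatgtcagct
Ctsd: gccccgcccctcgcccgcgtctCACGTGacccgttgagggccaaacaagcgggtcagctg
Glb1: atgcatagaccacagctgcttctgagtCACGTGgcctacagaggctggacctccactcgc
Lgmn: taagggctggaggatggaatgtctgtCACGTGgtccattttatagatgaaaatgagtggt
The Lamp1 stretch (chr8:13159086-13159160, plus strand) runs from 75 bases to 1 base before the start and holds 4 copies. Mcoln1 (chr8:3500439-3500498, plus strand, 80 to 21 bases before the start) holds 2. Ctsd (chr7:142387888-142387947, minus strand, 120 to 61 bases before) and Glb1 (chr9:114401003-114401062, plus strand, 75 to 16 bases before) hold 1 each. In Lgmn the copy lies before the second of its 2 RefSeq starts (chr12:102439108-102439167, minus strand, 75 to 16 bases before). The 10 members with TCACGTG had a median log2 fold change of -0.37 with LPS (1 higher and 7 lower) and -0.28 with SRF loss (1 higher and 8 lower). The 18 without it had medians of -0.029 (8 higher and 8 lower) and -0.62 (2 higher and 14 lower). Of all genes tested, 40.8% were higher and 40.8% lower with LPS, and 39.1% and 37.9% with SRF loss. These splits depend on the scaling. With library totals every member with TCACGTG was lower with LPS, but so were 28 of all 33 members and 67.8% of all genes tested. With SRF loss Atp6v0d1, Atp6v1a, Ctsd, Gaa and Mcoln1 were then higher, Gla, Lamp1 and Lgmn lower, and Ctsa and Glb1 did not pass. Among all genes tested, 61.1% were higher and 21.1% lower with SRF loss under that scaling. Of the stretches shown, Lgmn had the largest fall with SRF loss, and Lamp1 and Glb1 had no LPS call, so members with the same letters differed widely.

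SRF is known to bind the CArG box, CC followed by 6 bases of A or T and then GG, which was found in 1 of the 28 members (3.57%), beside 1.81% of all genes and 1.49% of tested genes. That member was Tfe3, with the box before the second of its 2 RefSeq starts (chrX:7763803-7763862, plus strand, 140 to 81 bases before it), printed with the box in capitals.
Tfe3: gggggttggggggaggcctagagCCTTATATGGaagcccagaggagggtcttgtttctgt
A match of letters is a description of the sequence and not a bound site, and a box outside these windows would not be seen.

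Other lysosomal genes, from lists chosen with earlier results known, were counted in the same way. Beside these counts stand the shares of all genes tested, 40.8% higher and 40.8% lower with LPS. With SRF loss they were 39.1% and 37.9%. Under library totals the shares were 21% higher and 67.8% lower with LPS, and 61.1% and 21.1% with SRF loss. Of 20 further glycan and sulfate enzymes, 16 fell and 2 rose with LPS (median -0.35, and 20 lower with library totals). Sgsh, a heparan sulfatase, was at 4.37 ± 0.729 CPM in control LPS and 51.3 ± 3.29 CPM in untreated control. Galc, the galactosylceramidase, was at 19.1 ± 0.898 CPM in control LPS and 73 ± 2.57 CPM in untreated control, and Manba, beta-mannosidase, was -1.79 on the log2 scale. With SRF loss 11 of the 20 fell and 6 rose (8 and 9 with library totals). The X-linked Ids, iduronate sulfatase, was -1.12 and lower under both scalings.

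Among 11 tested proteases and cystatins, 8 fell and 2 rose with SRF loss (6 and 4 with library totals), and LPS raised 4 and lowered 4 (1 and 10). Ctsk, the collagen-degrading cathepsin K of osteoclasts, was at 24.6 ± 1.5 CPM in SRF-KO LPS and 1.1 ± 0.0582 CPM in control LPS (4.47, adjusted p = 8.17e-27), with TMM opposite to all 9 cathepsin members. With library totals Ctsk was 4.82, while Ctsd (0.12) and Ctsl (0.22) were also higher and Ctsa did not pass. Cst7, cystatin F, an inhibitor of cathepsin C, was at 2.64 ± 0.225 CPM in SRF-KO LPS and 57.5 ± 4.47 CPM in control LPS, and LPS had raised it by 2.55. Cst3, cystatin C, was -0.84 with SRF loss. Tpp1 and Dpp7, a pair of peptidases, were -0.54 and -0.47 with LPS.

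Lipid and nucleic acid enzymes rose in 6 and fell in 5 of 13 cases with LPS (5 and 8 with library totals) and rose in 3 and fell in 8 with SRF loss (5 and 7). Naaa, an acid amidase, was at 88.9 ± 1.46 CPM in control LPS and 18.2 ± 0.425 CPM in untreated control, whereas the nuclease Dnase2a and the phospholipase Pla2g15 were -1.60 and -1.56. With SRF loss the acid phosphatase Acp2 was -1.50 and Smpdl3a -0.88, while Acp5, the osteoclast acid phosphatase, was 1.33. Of 24 membrane and transport genes LPS raised 13 and lowered 7, but 8 and 13 with library totals. Slc15a3, a peptide and histidine transporter, was at 1874 ± 43.1 CPM in control LPS and 241 ± 16.9 CPM in untreated control, and Stard3 was 1.37. With SRF loss 18 of the 24 fell and 3 rose (13 and 9), and among the lower were the channel P2rx4 (-1.75), Stard3 (-1.73) and the nucleoside transporter Slc29a3 (-1.52).

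Of 17 other V-ATPase and assembly genes tested, 10 were higher and 6 lower with LPS (5 and 11 with library totals). With SRF loss 4 were higher and 9 lower (9 and 5). The a subunits of the membrane sector moved in opposite directions with LPS: Atp6v0a1 was at 79.8 ± 2.52 CPM in control LPS and 263 ± 2.62 CPM in untreated control, and Tcirg1, which encodes the a3 subunit, at 1149 ± 67.3 CPM in control LPS and 524 ± 32.8 CPM in untreated control. Atp6v1e1, of the peripheral stalk, was 1.63. With SRF loss Atp6v0c, the proton-binding ring subunit, was at 66.5 ± 0.554 CPM in SRF-KO LPS and 228 ± 4.05 CPM in control LPS, and Tcirg1 and Atp6v1d were -1.16 and -0.88. These 5 genes kept the directions given here with library totals.

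Genes that sort proteins to lysosomes rose in 8 and fell in 12 of 22 cases with LPS (2 and 18 with library totals), and rose in 5 and fell in 13 with SRF loss (12 and 5). With library totals 67.8% of all genes tested were lower with LPS and 61.1% higher with SRF loss. M6pr, the cation-dependent mannose 6-phosphate receptor, was 1.37 with LPS, the adaptor subunit Ap3b1 1.44 and Gga2 -2.40. Sort1, the sortilin that carries progranulin and prosaposin, was at 40.9 ± 0.882 CPM in SRF-KO LPS and 3.89 ± 0.828 CPM in control LPS (3.39, adjusted p = 6.08e-27), while Ap3b1 was -0.72 and Gga2 1.41. Genes around TFEB regulation rose in 6 and fell in 12 of 20 cases with LPS (3 and 16 with library totals) and rose in 3 and fell in 10 with SRF loss (12 and 4). LPS raised Mitf, the third factor of the family, by 1.67 and Ywhaz by 1.17, and lowered Flcn (-1.67). Tfec, the fourth factor, was 4.53-fold higher in SRF-KO LPS than in control LPS (2.18, adjusted p = 2.97e-28), opposite to Tfe3 and Tfeb. Gpnmb, a glycoprotein known as a target of MITF and TFEB, was -1.39 and Fnip2 -0.84 with SRF loss.

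**Figure D4:**
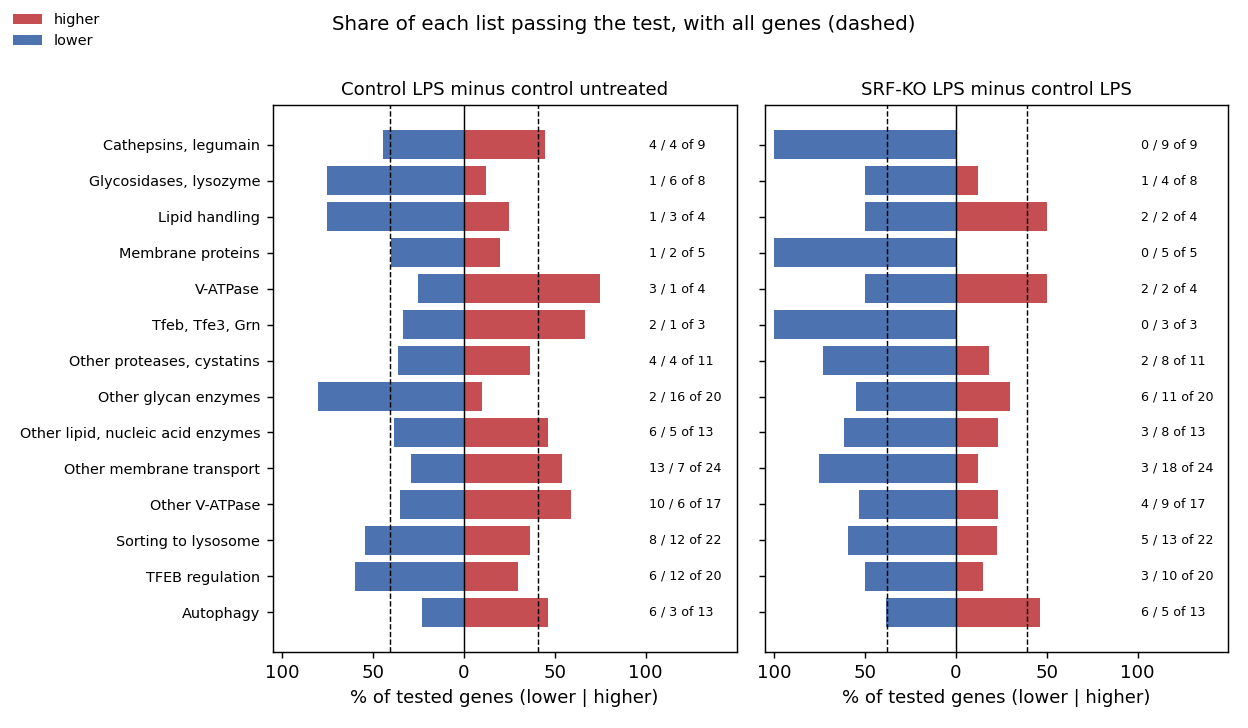
Percent of the tested genes of each lysosomal list that passed at an adjusted p below 0.05, higher to the right in red and lower to the left in blue, control LPS against untreated control on the left and SRF-KO LPS against control LPS on the right, with the counts written as higher / lower of tested. Dashed lines mark all genes tested (40.8% on both sides with LPS, 39.1% higher and 37.9% lower with SRF loss), and TMM scaling was used.

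Set against untreated control, a comparison that shares libraries with both others and is given only for its values, SRF-KO LPS had 25 members lower and 5 higher (79.5% of all genes passed, 39.4% higher and 40.1% lower), with a median of -0.61. Library totals gave 28 lower and 4 higher (52.3% and 29.8% of all genes). Ctsc stood highest, 2.6-fold above untreated control (log2 fold change 1.38, adjusted p = 1e-27), followed by Lyz2 (0.57), Atp6v1h (0.53), Tfe3 (0.40) and Atp6v0d1 (0.16, or -0.036 with library totals). Lgmn was 8.03-fold lower (SE 0.0411 on the log2 scale, adjusted p = 7.03e-39), and Lipa, Cd68, Ctsb and Psap were -1.99, -1.86, -1.58 and -1.50. Ctsz, Lamp2 and Neu1 did not pass (adjusted p = 0.703, adjusted p = 0.109 and adjusted p = 0.0571), which does not show that they were equal. With library totals all 3 passed as lower (Ctsz -0.21, Lamp2 -0.27 and Neu1 -0.29). Neu1 passed without the first untreated or the first SRF-KO LPS library (adjusted p = 0.00649 and adjusted p = 0.0161), and Lamp2 without the third untreated or the second SRF-KO LPS library (adjusted p = 0.0224 and adjusted p = 0.0118).

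**Figure D5:**
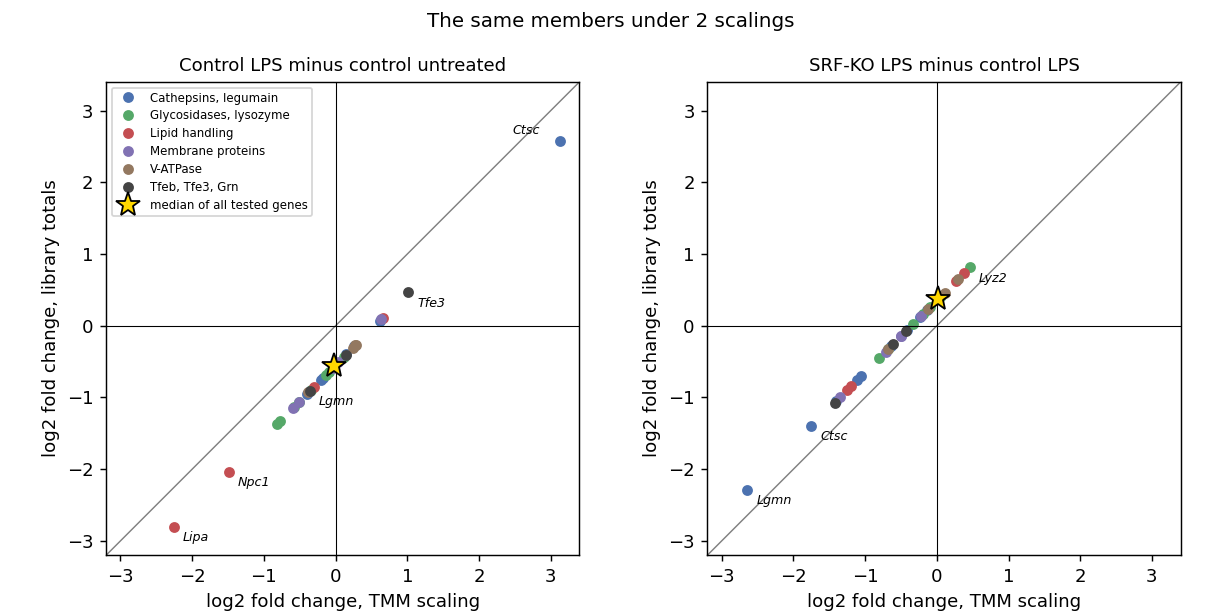
Log2 fold change of the 33 members with TMM scaling (x axis) and with library totals (y axis), control LPS minus untreated control on the left and SRF-KO LPS minus control LPS on the right, coloured by role, with the median of all tested genes as a star and the line of equality in grey. All points lie on a parallel to that line, shifted down with LPS and up with SRF loss by as much as the median of all genes, so the spacing between members is the same under both scalings.

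Replicates were close for all members. The coefficient of variation of a member within a group ran from 0.912% to 8.29% in SRF-KO LPS, from 0.387% to 7.04% in control LPS and from 0.123% to 9.73% in untreated control, with medians of 3.15%, 2.63% and 3.11%. The widest were Gaa in both LPS groups and Tfeb in untreated control, and the lowest count of any member in a library was 344. Exons of 8 members overlap a gene on the other strand, among them Grn, Npc1, Hexa, Lamp1 and Atp6v1h beside the cathepsins named above.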

How the data were processed

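The deposited values are raw read counts, 1 for each Ensembl gene in a library, per the file headers, with no normalization. Library preparation was by TruSeq stranded chemistry, per the labels. bcl2fastq 2.19, Trimmomatic, STAR 2.5.4b, featureCounts, edgeR and build GRCm38 are named without options, per the submitters' processing notes, while annotation release and strand setting are not given in those sources. Symbols, coordinates and exon lengths came from GENCODE mouse release M21 (GRCm38) for 22291 of 22524 genes, and promoters from RefSeq GRCm38.p6. TPM used the summed exon length of a gene over its transcripts, which can exceed the transcript made.

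Groups and replicate numbers came from the titles. In R 4.3.3, genes were kept by edgeR 4.0.16 filterByExpr (11560 genes) and all 9 libraries entered 1 robust quasi-likelihood fit with group as the only term, giving a common biological coefficient of variation of 3.46%. Standard errors were the unshrunken log2 fold change divided by the root of F. TMM factors were 1.04 in SRF-KO LPS, 0.81 to 0.814 in control LPS and 1.18 to 1.19 in untreated control. Total counts per library are in the opening paragraphs, and no replicate pair agreed within sampling noise (chi-square per degree of freedom 1.75 to 3.95). Correlations between same-numbered libraries were weak (see the closing section). Alternatives were library totals, median-of-ratios scaling, no filter, DESeq2 1.42.0, a replicate block, the 2 compared groups alone, leaving out each library, and, added after the data were seen, no genes on X and Y.

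All members could be named, with Srf, marker genes, and of each other list the 3 tested genes with the smallest p per comparison, some of which are not reported here. Members and lists were chosen with earlier results of these data known, and no list was given a test. On simulated counts for LPS in control cells (11418 genes tested), 73% of the genes given a 1.25-fold change and 100% of those given a 2-fold change passed, as did 10 genes left unchanged. In the simulation of SRF loss (11425 genes tested) these were 73%, 100% and 9, so small changes can be missed. Only 100 genes were changed per fold in the simulation, whereas most genes passed in the data, so these rates need not hold for the data. The simulation did not cover errors of scaling.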

Additional observations from a re-analysis of the deposited data

How the results depend on the processing

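Scaling was the 1 choice that moved the counts of members past 1.5 times. With library totals, members higher and lower with LPS numbered 3 and 28, in place of 12 and 17, and members higher with SRF loss numbered 13, in place of 5. Log2 fold changes with LPS then reversed for Ctsh (-0.40), Ctss (-0.29), Lyz2 (-0.44), Lamp1 (-0.51), Atp6v0d1 (-0.27), Atp6v1b2 (-0.27), Atp6v1h (-0.31) and Grn (-0.41). With SRF loss they reversed for Ctsd (0.12), Ctsl (0.22), Glb1 (0.027), Gaa (0.26), Man2b1 (0.16), Mcoln1 (0.14) and Atp6v0d1 (0.23), and against untreated control for Atp6v0d1 (-0.036). Calls were gained with LPS by Ctsl, Glb1 and Cd63, with SRF loss by Gusb and Neu1, and against untreated control by Ctsz, Lamp2 and Neu1. They were lost with LPS by Ctsz and Lamp2, and with SRF loss by Ctsa and Tfeb. The shift is that of the median of all genes, as the change of scaling applies 1 factor per library. Under the other alternatives, 31 of 33 members kept direction and call with LPS (all but Glb1 and Neu1), 29 with SRF loss (all but Atp6v1a, Gaa, Gusb and Neu1) and 30 against untreated control (all but Ctsz, Lamp2 and Neu1). Leaving out 1 library at a time, Neu1 with SRF loss ran from -0.0034 to 0.059 on the log2 scale and Ctsz against untreated control from -0.042 to 0.015, neither passing in any run. DESeq2 and median-of-ratios scaling changed no member's call. The replicate block gave 12 higher and 18 lower members with LPS (30 passing), 5 and 25 with SRF loss (30), and 5 and 25 against untreated control (30). It added the LPS call of Glb1 (-0.097, adjusted p = 0.0386) and changed no other member's call. Correlations of same-numbered libraries lay between -0.034 and 0.03 for LPS, 0.018 and 0.097 for SRF loss, and -0.075 and 0.051 against untreated control. Those of differently numbered libraries lay between -0.0624 and 0.0585, -0.0725 and 0.00672, and -0.11 and 0.111 in the same order. All were weak, and with 3 libraries a group they cannot show whether the numbers pair the libraries. Without X and Y genes 22 of 30 members were lower and 5 higher with SRF loss. Every member had at least 344 counts in each library, so depth limited Tfeb and Mcoln1 most, the members with the fewest reads in every group.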

Other observations

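Autophagy genes, many of them known targets of TFEB, rose in 6 and fell in 3 of 13 cases with LPS, or 2 and 10 with library totals. Of all genes tested, 40.8% were higher and 40.8% lower with LPS, or 21% and 67.8% with library totals. Atg7 was at 28.1 ± 1.56 CPM in control LPS and 71.9 ± 4.18 CPM in untreated control, and Sqstm1, the p62 receptor, at 827 ± 12.7 CPM in control LPS and 494 ± 21.8 CPM in untreated control. Atg16l1 was 0.55 on the log2 scale, or -0.002 and not passing with library totals. With SRF loss 6 rose and 5 fell, or 8 and 2 with library totals. These counts were near the shares of all genes tested, 39.1% higher and 37.9% lower, or 61.1% and 21.1% with library totals. Gabarapl1 was at 96.2 ± 2.68 CPM in SRF-KO LPS and 39.1 ± 2.27 CPM in control LPS, whereas Uvrag and Optn were -0.92 and -1.60. The median of the 13 autophagy genes with SRF loss was 0.0047, beside 0.014 for all genes tested and -1.06 for the cathepsins and legumain.

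Shares of the members' reads changed by role. Cathepsins and legumain held 41.6 ± 0.259% in SRF-KO LPS, 53 ± 0.126% in control LPS and 51.1 ± 0.274% in untreated control (SD, n = 3). Glycosidases with lysozyme held 36.2 ± 0.289%, 18.2 ± 0.238% and 18.4 ± 0.234%, most of it Lyz2 in each group. Lyz2 alone held 33% in SRF-KO LPS and 15.6% in control LPS, and a larger Lyz2 share makes the other shares smaller. The lower cathepsin share therefore does not show a fall relative to members other than Lyz2, and the level of Lyz2 is itself uncertain. The Cd63 to Cd68 read ratio was 0.498 ± 0.0359 in SRF-KO LPS, 0.277 ± 0.0102 in control LPS and 0.199 ± 0.0126 in untreated control, and the Gla to Glb1 ratio 0.7 ± 0.0257, 0.894 ± 0.0085 and 1.44 ± 0.117. These shares and ratios need no scaling factor.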
